A study of Homo sapiens with 5 samples.

Results

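The Notch pathway was examined here through 10 genes: the ligands DLL1, DLL3, JAG1 and JAG2, the receptors NOTCH1, NOTCH2 and NOTCH3, the target genes HES1 and HEY1, and REST, a repressor of neuronal genes. They were chosen by name among the 64837 entries of the count tables; 9 were found under the symbols of the deposited gene table and DLL1 under its GENCODE release 29 symbol. The cells were NCI-H209, an established human small-cell lung cancer (SCLC) line grown in RPMI-1640 with serum. The control group (n = 3 libraries) was left untreated. The co-cultured group (n = 2) shared its medium for 24 h with human brain microvascular endothelial cells (HBMECs) kept in a Transwell chamber, an insert whose membrane separates both cell layers. A single cell line was sequenced, without a co-culture partner other than HBMECs, so an effect of HBMECs and an effect of co-culture as such cannot be told apart.

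Notch receptors are cut after a ligand on a neighbouring cell pulls on them, and the freed intracellular part joins the DNA-binding protein RBPJ to switch on HES and HEY genes, which encode repressors. In neuroendocrine SCLC the pathway is usually low, and the cells express DLL3, a ligand that holds Notch back within the same cell, whereas cells with active Notch express HES1 and REST and lose neuroendocrine genes. JAG1, JAG2 and DLL4 are ligands that activate receptors on neighbouring cells, and endothelial cells are a known source of JAG1 and DLL4.

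The tables gave 15457071 to 19157348 counts per library on the strand expected for the directional kit, and 3 counts corresponded to 0.154 to 0.198 CPM (counts per 1e6 counts of the scaled library). Unmapped reads took up 8.13% to 8.48% in control against 15.9% and 16.8% after co-culture, and their part in the differences below was not tested. Control replicate 1 differed from replicates 2 and 3 by 17.9 and 18.1 times sampling noise (chi-square per degree of freedom), against 6.34 between those, and without it 9897 genes were called in place of 6809. For some genes control replicates 1 and 2 carried opposite-strand reads that were nearly missing from the other 3 libraries, which touches NOTCH1 and NOTCH2. The neuroendocrine label held: of 11 neuroendocrine markers and the tuft-cell marker POU2F3, the summed level was 2461 to 2939 CPM in control and 3335 to 3411 CPM in co-cultured cells, with SYP at 1019 to 1651 counts per library and POU2F3 at 16 to 28.

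Because HES and HEY genes are where RBPJ acts, the 250 bases before the RefSeq start site (GRCh38.p14) were searched for the core RBPJ motif. The motif is TGGGAA on either strand (TTCCCA when read on the other). HEY1 was not searched. Of the 6 genes searched among HES1, other HES and HEY genes and NRARP, 4 held a match. They are printed 5′ to 3′ on the strand of the gene, with the matches in capitals. HES1 lies on the plus strand (chr3:194135898-194136147), HES4 on the minus strand (chr1:1000098-1000347), HEY2 on the plus strand (chr6:125749382-125749631) and HEYL on the minus strand (chr1:39639644-39639893).
HES1: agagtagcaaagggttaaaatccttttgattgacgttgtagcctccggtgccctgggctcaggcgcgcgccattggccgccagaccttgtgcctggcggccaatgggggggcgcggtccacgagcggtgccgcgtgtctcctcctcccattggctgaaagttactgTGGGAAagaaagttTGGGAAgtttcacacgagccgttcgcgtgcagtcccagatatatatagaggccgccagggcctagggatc
HES4: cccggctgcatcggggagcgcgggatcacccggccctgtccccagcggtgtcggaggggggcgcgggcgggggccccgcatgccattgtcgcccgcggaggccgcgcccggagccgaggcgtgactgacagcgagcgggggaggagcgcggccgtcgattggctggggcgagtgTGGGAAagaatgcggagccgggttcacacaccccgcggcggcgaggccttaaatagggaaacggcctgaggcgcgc
HEY2: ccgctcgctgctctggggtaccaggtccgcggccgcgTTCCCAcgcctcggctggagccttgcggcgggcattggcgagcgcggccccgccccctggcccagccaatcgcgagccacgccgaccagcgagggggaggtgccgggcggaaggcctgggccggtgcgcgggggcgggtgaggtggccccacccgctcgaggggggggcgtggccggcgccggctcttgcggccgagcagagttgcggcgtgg
HEYL: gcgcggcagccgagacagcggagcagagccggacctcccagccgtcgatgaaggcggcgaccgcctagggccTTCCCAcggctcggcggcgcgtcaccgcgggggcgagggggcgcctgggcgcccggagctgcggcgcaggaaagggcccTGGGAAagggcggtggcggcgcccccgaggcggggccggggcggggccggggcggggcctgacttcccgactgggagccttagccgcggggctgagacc
In HES1 the matches began 84 and 70 bases before the start site and had the same orientation. HEYL held 2 matches of opposite orientation, 178 and 99 bases upstream, and HES4 and HEY2 held 1 each, 76 and 213 bases upstream. Of all 35116 RefSeq promoters of this length, 20.8% held at least 1 match and 2.90% at least 2. Among the 7 genes of the 10 with an upstream sequence printed or searched here, HES1 alone held a match, and JAG1, JAG2, NOTCH1, NOTCH2, NOTCH3 and both start sites of REST had none. NRARP and HES6, of the same target list, had none either. A match describes the letters in this window and not a bound site.

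Of the 10 genes, 9 had enough counts to be tested and 6 passed an adjusted p of 0.05 by edgeR's quasi-likelihood test over 20360 genes, against 33.4% of all genes tested. JAG1, JAG2 and HES1 were upregulated in the co-cultured cells (18.4% of all genes tested were) and DLL3, NOTCH1 and HEY1 were downregulated (15.0% of all genes tested). Ligands and targets thus had called genes on either side, and NOTCH1 was the only receptor called. By the study's thresholds, read here as over 1 log2 unit in either direction at an unadjusted p below 0.05 because the methods state neither the scale nor an adjustment, JAG1 was higher (5.44% of all genes tested) and NOTCH1 lower (5.01%), which makes 2 of 9 beside 10.5%. The libraries of both groups did not overlap in 8 of the 9 genes, 4 with the co-cultured libraries above (29.4% of all genes tested) and 4 below (30.0%), beside 59.4% in all. The median log2 fold change of all genes tested was -0.03.

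**Figure D1:**
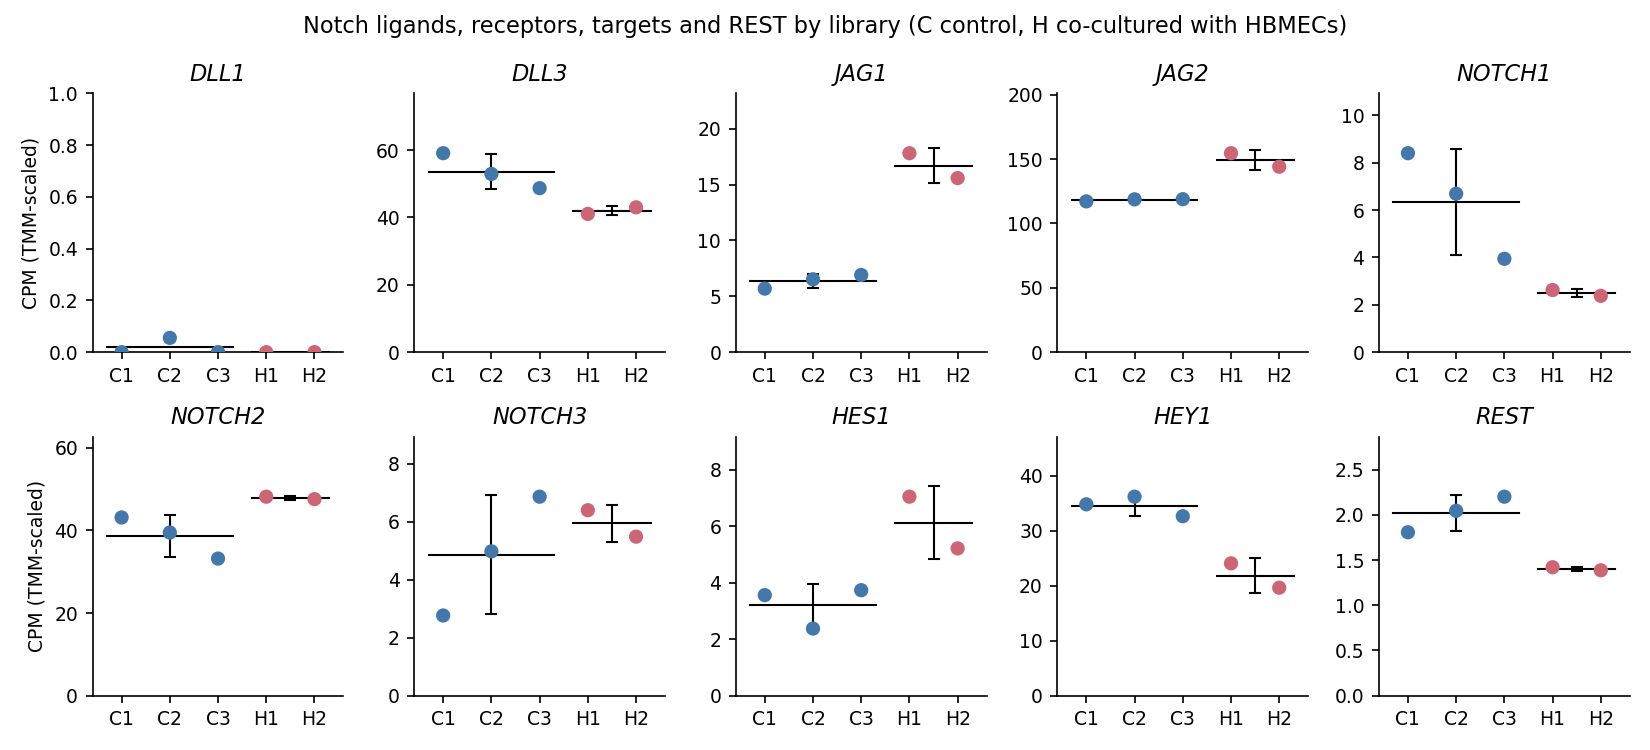
TMM-scaled CPM (y axis, linear, own scale per gene) of the 10 genes in control libraries C1 to C3 and co-cultured libraries H1 and H2; lines are group means and bars the SD, with no bar for DLL1. JAG1 stands at 5.69 to 6.91 CPM in control and 15.6 and 17.8 in co-cultured cells, while NOTCH3 overlaps and DLL1 has a single read.

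Among the ligands, JAG1 (ENSG00000101384.12, chr20:10637684-10673999, minus strand, GRCh38), a membrane ligand that activates Notch on neighbouring cells, showed the largest fitted change of the 10 genes with all libraries kept, followed closely by NOTCH1. It had counts of 107, 118 and 135 in control libraries and 326 and 236 with co-culture. Both co-cultured libraries stood well above all controls. The level went from 6.38 ± 0.625 CPM (SD, n = 3) to 16.7 ± 1.58 (SD, n = 2), a log2 fold change of 1.39 with a standard error of 0.14 and a 95% interval of 1.07 to 1.71, or 2.62-fold (edgeR adjusted p = 0.000204). JAG2 (ENSG00000184916.8, chr14:105140981-105168824, minus strand), its close relative, was far more abundant, with counts of 2203, 2147 and 2321 in control libraries and 2828 and 2181 with co-culture. On the CPM scale, which takes the smaller size of co-cultured replicate 2 into account, all controls lay between 117 and 119 and the co-cultured libraries at 155 and 144. The rise was 0.34 on the log2 scale (standard error 0.07, adjusted p = 0.00770), and without co-cultured replicate 1 it was 0.29 with an adjusted p of 0.107. Fits without a co-cultured library, here and below, keep 1 library in that group and take the spread from the controls alone. A call lost in them does not by itself show a smaller difference, which is read from the log2 fold change.

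DLL3 (ENSG00000090932.10, chr19:39498895-39508481, plus strand), the inhibitory ligand that is abundant on SCLC cells and a target of SCLC therapies, went the other way. Its counts were 1111, 957 and 951 in control and 751 and 651 with co-culture. The groups did not overlap, and the level went from 53.6 ± 5.22 CPM to 42.0 ± 1.38 CPM. The log2 fold change was -0.35 (standard error 0.10, 95% interval -0.58 to -0.13, adjusted p = 0.0248), the weakest of the 6 calls. The call was lost without control replicate 2 (-0.36, adjusted p = 0.0529), without co-cultured replicate 1 (-0.31, adjusted p = 0.187) and without co-cultured replicate 2 (-0.38, adjusted p = 0.124).

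DLL1 (ENSG00000198719.8, chr6:170282206-170306565, minus strand), a further activating ligand, had 1 count in control replicate 2 and 0 in the other libraries. Its only protein-coding neighbour within 150 kb, FAM120B, also had 0 counts in all 5 libraries, while the patch-sequence entry of FAM120B had 1 to 4. Genes with entries on patch or haplotype sequences can lose their reads in such a table, so whether a count of 0 for DLL1 measures its expression cannot be told from these counts.

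Per kilobase of exon, which allows levels of different genes to be compared, DLL3 (20.5 ± 1.99 CPM per kb) and JAG2 (18.5 ± 0.148) were the leading ligands in control cells. DLL3 was above JAG2 in each control library, by a mean difference smaller than the SD of DLL3. JAG1 was at 0.686 ± 0.0672 CPM per kb. In co-cultured cells JAG2 stood at 23.3 ± 1.16, DLL3 at 16.1 ± 0.528 and JAG1 at 1.80 ± 0.169, with JAG2 above DLL3 in both libraries. DLL4 is a further activating ligand from the list of other Notch ligands and receptors. Of the summed level of DLL3, JAG1, JAG2 and DLL4, DLL3 made up 48.6% ± 2.28 in control and 36.0% ± 1.86 in co-cultured cells. The share of JAG2 was 44.0% ± 2.53 and 52.3% ± 1.62, and that of JAG1 was 1.64% ± 0.239 and 4.02% ± 0.304. The inhibitory ligand therefore took a smaller share of ligand transcripts in both co-cultured libraries than in any control, and each activating ligand a larger one, although JAG1 remained a minor species. These shares are a description of the same counts and were not tested.

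**Figure D2:**
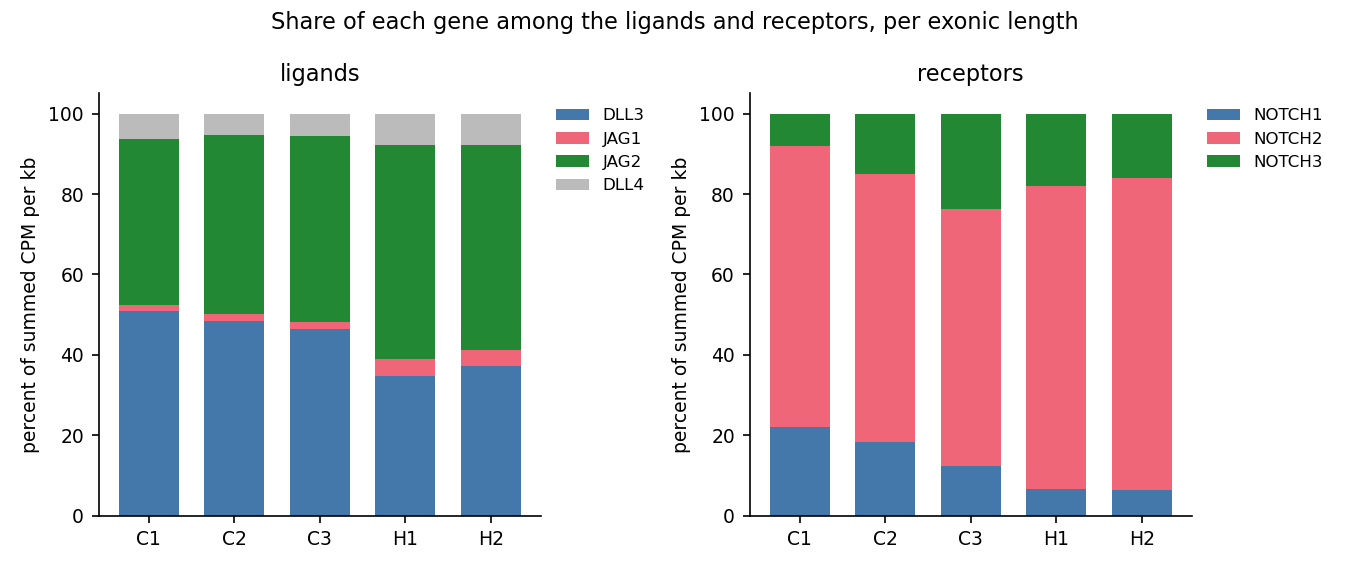
Percent of summed CPM per kb (y axis) held by each ligand (left) and each receptor (right) in control libraries C1 to C3 and co-cultured libraries H1 and H2. The DLL3 segment is 46.3% to 50.9% in control and 34.7% and 37.3% with co-culture, and the NOTCH1 segment 12.3% to 22.1% and 6.66% and 6.29%.

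Among the receptors, NOTCH1 (ENSG00000148400.10, chr9:136494433-136545786, minus strand) fell in co-cultured cells. The controls had 158, 121 and 77 counts and the co-cultured libraries 48 and 36. All controls were above both co-cultured libraries, but they spread widely, with control replicate 3 closest to the co-cultured group. The level was 6.34 ± 2.25 CPM in control and 2.50 ± 0.174 in co-cultured cells, 2.52-fold lower, with a log2 fold change of -1.34 (standard error 0.32, 95% interval -2.06 to -0.61, adjusted p = 0.0119). Leaving out co-cultured replicate 1 or 2 gave -1.40 and -1.27 with adjusted p-values of 0.0862 and 0.0987.

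The strand of the reads bears on this spread. On its opposite strand NOTCH1 had 60 and 29 reads in control replicates 1 and 2, and 1 in control replicate 3, 1 in co-cultured replicate 1 and 0 in co-cultured replicate 2. These were 27.5% (Wilson 95% interval 22.0% to 33.8%) and 19.3% (13.8% to 26.4%) of its reads in control replicates 1 and 2, and at most 2.04% in the other 3 libraries. Over all tested genes with at least 20 reads the median opposite-strand share was 0.59% to 0.75% per library. The annotated antisense gene AL592301.1 overlaps NOTCH1 without sharing exonic bases and had 0 counts in all 5 libraries. The expected minus the opposite strand gave 98, 92 and 76 in control and 47 and 36 with co-culture. In these differences the groups still did not overlap and the controls lay closer together. With the subtraction made for every gene, NOTCH1 was at -0.95 (standard error 0.23, adjusted p = 0.0188). With control replicates 1 and 2 left out, so that a lone control library was assumed to vary like the co-cultured pair, it was -0.65 with an adjusted p of 0.0698. NOTCH1 thus kept its direction, while its size moved by over 1.5-fold and its call was lost when control replicate 3 alone stood for the group.

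NOTCH2 (ENSG00000134250.19, chr1:119911553-120069626, minus strand), the most abundant of the receptors, had counts of 811, 714 and 648 in control libraries and 881 and 720 with co-culture. In CPM the controls were at 43.1, 39.5 and 33.2 and the co-cultured libraries at 48.2 and 47.6, with no overlap. The log2 fold change of 0.31 (standard error 0.11, 95% interval 0.06 to 0.57) missed the threshold (adjusted p = 0.0613, edgeR's quasi-likelihood test). NOTCH2 shared the strand pattern of NOTCH1, with 59 and 48 opposite-strand reads in control replicates 1 and 2 and 2, 1 and 0 in the others, or 6.78% and 6.30% against at most 0.308%. With the opposite strand subtracted it passed the threshold at 0.37 (adjusted p = 0.0238), as it did without control replicate 1 at 0.40 (adjusted p = 0.00107) and without control replicates 1 and 2 at 0.53 (adjusted p = 6.43e-06).

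NOTCH3 (ENSG00000074181.8, chr19:15159038-15200981, minus strand), a receptor best known from vascular smooth muscle, did not share this pattern. It had 1 to 3 opposite-strand reads per library and 52, 90 and 134 expected-strand counts in control against 117 and 83 with co-culture. The controls spanned the co-cultured libraries. Its log2 fold change of 0.29 had a standard error of 0.32 (adjusted p = 0.522), so a change in either direction was not detectable, and the sign turned to -0.20 (adjusted p = 0.511) without control replicates 1 and 2.

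A pattern of at least 20 opposite-strand reads in control replicates 1 and 2 and at most 3 in each other library, limits set after the values were seen, was met by 33 of the 20360 genes tested (0.162%). Besides NOTCH1 and NOTCH2, the acetyltransferase gene CREBBP and the endothelial receptor genes KDR and TEK met it among the 119 tested genes of all lists used here. Of the 33 genes, 9 were called lower and 3 higher in co-cultured cells, beside 15.0% and 18.4% of all genes tested. The calls in all were near the background share of 33.4%. The limits themselves set control replicates 1 and 2 against both co-cultured libraries. The split between lower and higher calls is therefore not independent of how the genes were picked. The part of the opposite-strand pattern in these calls was not tested.

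**Figure D3:**
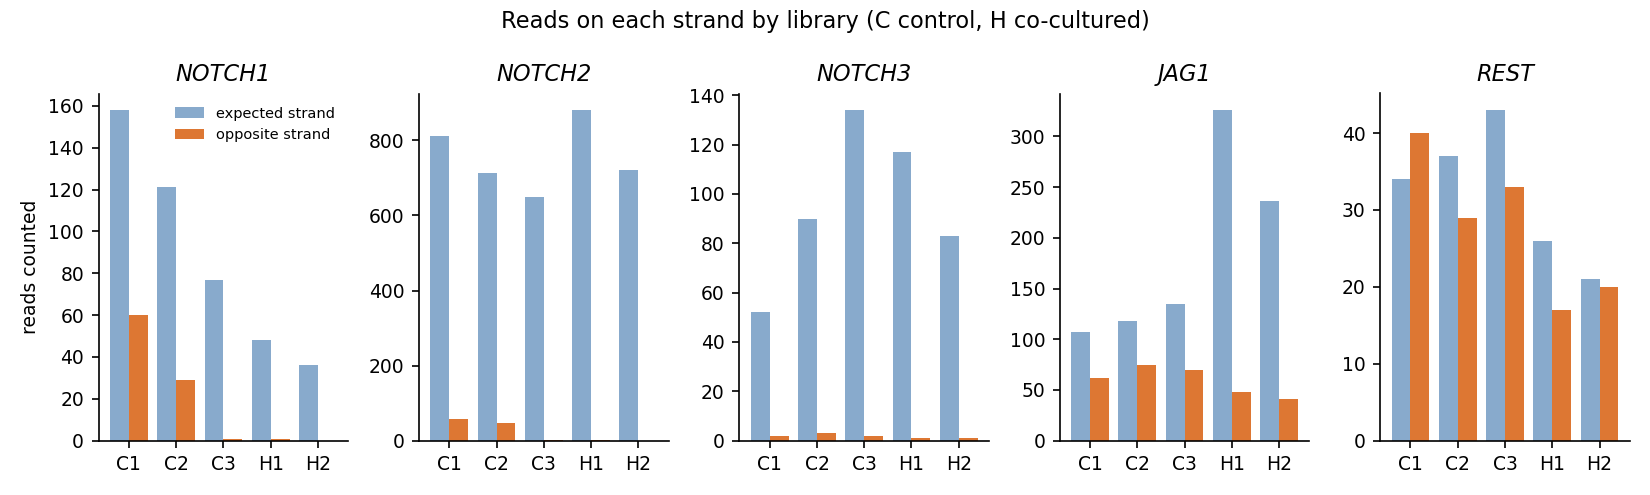
Reads counted on the expected and the opposite strand (y axis, linear, own scale per gene) for NOTCH1, NOTCH2, NOTCH3, JAG1 and REST in control libraries C1 to C3 and co-cultured libraries H1 and H2. Opposite-strand bars of NOTCH1 (60 and 29 reads) and NOTCH2 (59 and 48) stand in C1 and C2 against at most 2 reads elsewhere, whereas those of JAG1 and REST stand in all 5 libraries.

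Per kilobase of exon NOTCH2 led the receptors with 2.30 ± 0.299 CPM per kb in control and 2.85 ± 0.0249 in co-cultured cells. NOTCH1 (0.611 ± 0.217) and NOTCH3 (0.518 ± 0.218) overlapped in control cells. In co-cultured cells NOTCH1 was at 0.241 ± 0.0167 and NOTCH3 at 0.632 ± 0.0687, without overlap. NOTCH2 made up 66.9% ± 2.96 of the summed receptor level in control and 76.6% ± 1.60 in co-cultured cells, NOTCH1 17.6% ± 4.91 and 6.47% ± 0.258, and NOTCH3 15.6% ± 7.84 and 17.0% ± 1.34. These shares rest on expected-strand counts alone.

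JAG1 also had opposite-strand reads, but in all 5 libraries: 62, 75 and 70 in control and 48 and 41 with co-culture. They made up 34.1% to 38.9% of its reads in control and 12.8% and 14.8% with co-culture. The antisense gene AL050403.2 shares 79 exonic bases with JAG1 and was itself counted 1 time at most per library. The expected strand alone carried the rise, with differences between strands of 45, 43 and 65 in control and 278 and 195 with co-culture. Across 14 alternative ways of counting and fitting, JAG1 was called in all, with a log2 fold change from 0.98 for unstranded counts to 2.36 with the opposite strand subtracted, so its direction and call were stable and its size depended on the handling of the opposite strand.

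Of the target genes, HES1 (ENSG00000114315.3, chr3:194136145-194138732, plus strand), the classical Notch target, which encodes a repressor, rose with co-culture. Its counts were low, at 67, 43 and 73 in control and 129 and 79 with co-culture. The lower co-cultured library lay only slightly above the highest control in raw counts, and in CPM the co-cultured libraries were at 7.05 and 5.22 against 2.38 to 3.74 in control. The log2 fold change was 0.93 (standard error 0.24, 95% interval 0.38 to 1.47), or 1.90-fold, with an adjusted p of 0.0170. Without co-cultured replicate 1 it was 0.70 with an adjusted p of 0.182, and without control replicate 2 it was 0.76 with an adjusted p of 0.0512. The upstream sequence of HES1, printed above, holds 2 matches to the core RBPJ motif. That of HEYL, which fell, also holds 2, and a role of the motif in the HES1 rise was not tested.

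HEY1 (ENSG00000164683.16, chr8:79764010-79767863, minus strand), a repressor of the related HEY family, fell. It had counts of 654, 654 and 637 in control libraries and 440 and 297 with co-culture, and the groups stood clearly apart. The level went from 34.5 ± 1.79 CPM to 21.8 ± 3.13 CPM, 1.58-fold lower, with a log2 fold change of -0.66 (standard error 0.11, 95% interval -0.92 to -0.40, adjusted p = 0.00261). HEY1 was called in all 14 alternatives, with values from -0.81 to -0.52 when single libraries were left out. Per kilobase of exon HEY1 exceeded HES1 in both groups, at 10.7 ± 0.553 against 1.56 ± 0.359 CPM per kb in control and 6.76 ± 0.969 against 2.98 ± 0.628 in co-cultured cells. Both targets of the same pathway therefore changed in opposite directions, and the gap between them narrowed.

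REST (ENSG00000084093.16, chr4:56907876-56966678, plus strand), a zinc-finger repressor that silences neuronal genes outside neurons and is kept low in neuroendocrine SCLC, was the lowest of the 9 tested genes per length. It had counts of 34, 37 and 43 in control libraries and 26 and 21 with co-culture. Both co-cultured libraries were below all controls, at 1.42 and 1.39 CPM against 1.81 to 2.20. The log2 fold change of -0.52 (standard error 0.27, 95% interval -1.12 to 0.08, adjusted p = 0.165) did not pass the threshold. Reads of the opposite strand were nearly as frequent, at 40, 29 and 33 in control and 17 and 20 with co-culture, 39.5% to 54.1% of the total. NOA1, on the opposite strand, shares 23 exonic bases with REST and had counts of 311, 333 and 360 in control libraries and 198 and 178 with co-culture. After subtraction REST had 0 to 10 counts per library and was too low to be fitted, so its difference between groups was not tested apart from the opposite strand.

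Ordered by level per kilobase of exon, the control cells had DLL3 and JAG2 first, then HEY1, NOTCH2, HES1, JAG1, NOTCH1, NOTCH3 and REST. There DLL3 lay above JAG2 in each library but by less than its SD, and JAG1, NOTCH1 and NOTCH3 overlapped. In co-cultured cells the order was JAG2, DLL3, HEY1, HES1, NOTCH2, JAG1, NOTCH3, NOTCH1 and REST, in which HES1 and NOTCH2 overlapped. REST was at 0.253 ± 0.0248 CPM per kb in control and 0.176 ± 0.00300 in co-cultured cells.

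**Figure D4:**
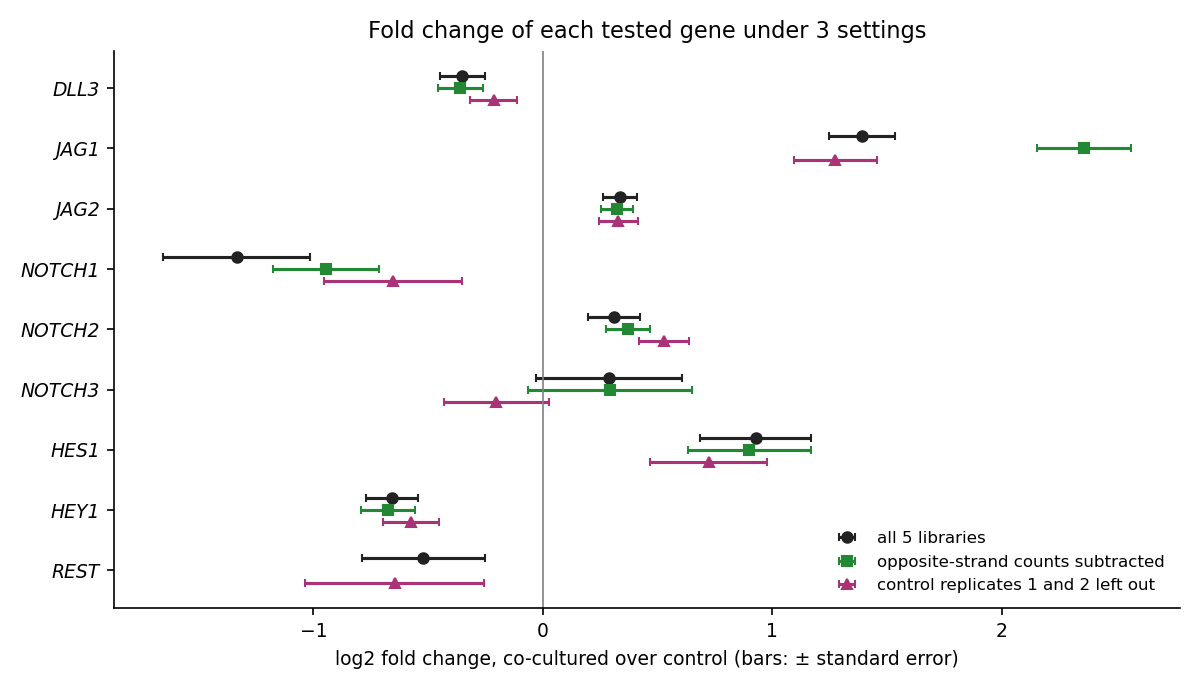
Co-cultured over control cells on the log2 scale (x axis, bars ± standard error) of the 9 tested genes with all 5 libraries, with opposite-strand counts subtracted, and with control replicates 1 and 2 left out. JAG1 and HEY1 keep their side and call, NOTCH1 moves from -1.34 to -0.95 and -0.65, NOTCH3 changes sign, and REST has no value after subtraction.

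The other genes of the pathway were taken by role, from lists written with earlier results of these data known, and named by the smallest p among those called. Over 7 lists with 62 genes, 55 were tested, 17 were higher and 11 lower, so 50.9% were called, beside 33.4% of all genes tested. No test of the lists was made. The rises and falls given for each list below stand beside 18.4% higher and 15.0% lower over all genes tested.

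Among 5 other ligands and receptors, 4 were tested and 2 rose, with a list median of 0.36 on the log2 scale beside -0.03 for all genes. DLL4 had counts of 255, 190 and 206 in control libraries and 304 and 248 with co-culture, for a rise of 0.52 on the log2 scale (adjusted p = 0.0233), and DLK2, a non-canonical ligand, had 26, 36 and 36 against 73 and 71 (1.31, adjusted p = 0.00341). On its opposite strand DLK2 had 46, 32 and 37 reads in control and 32 and 22 with co-culture. Subtraction, with negative values set to 0, left 0, 4 and 0 against 41 and 49, so the size of its rise depended on the handling of the opposite strand. NOTCH4 was listed at 0 counts in every library. It lies in the major histocompatibility region of chromosome 6. There 150 of 181 protein-coding genes (82.9%) had at most 3 counts over all libraries, against 21.0% of all protein-coding genes. Whether the 0 of NOTCH4 measures its expression therefore cannot be told from these counts.

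Of 9 genes for glycosylation of receptors and ligands and for ubiquitination of ligands, 8 were tested, 5 fell and 0 rose, with a median of -0.49. The neuralized ubiquitin ligases NEURL1 (-0.78, adjusted p = 0.000190) and NEURL1B (-0.59, adjusted p = 0.00143), which send ligands into endocytosis, fell, as did the ligase MIB2 (-0.64, adjusted p = 0.0239). POGLUT1, which adds glucose to Notch repeats, fell by 0.60 and the fringe enzyme LFNG, which tunes the choice of ligand, fell by 0.39. NEURL1 had counts of 2358, 2108 and 2267 in control libraries and 1304 and 1023 with co-culture, with no overlap. MIB1, the main ligase for ligand endocytosis, had a log2 fold change of 0.20 and was not called (adjusted p = 0.0773), and it was named after its value was seen.

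The 9 genes for receptor cleavage gave 2 that rose and 1 that fell, near the shares over all genes, with a median of -0.10. FURIN, the protease that cuts the receptor on its way to the surface, went from 931, 935 and 894 counts to 1845 and 1632 (1.09, adjusted p = 5.01e-05). APH1A, a subunit of gamma-secretase, rose by 0.36, and ADAM10, the protease that cuts the receptor after ligand binding, fell by 0.44. In each of the 3 genes, which were named because they were called, the groups did not overlap on the CPM scale. The same held for 59.4% of all genes tested. Of 9 inhibitors and turnover genes, 2 rose and 1 fell, again near the shares over all genes, with a median of 0.00. These were DTX3L (1.06, adjusted p = 9.35e-05) and DTX3 (-0.26) of the Deltex family of ubiquitin ligases, and ITCH (0.30), a ligase that acts on Notch.

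On the DNA side, 9 genes of the RBPJ activator complex gave 3 that rose and 1 that fell (median 0.23). The coactivator MAML2 had counts of 368, 334 and 389 in control libraries and 793 and 606 with co-culture (1.11, adjusted p = 8.79e-05). RBPJ itself rose by 0.46 (adjusted p = 0.0105) and the acetyltransferase KAT2B by 0.50, while KAT2A fell by 0.54. MAML1 was counted on its patch-sequence entry, which had 47 to 87 counts against 0 or 1 on the primary entry. Of 12 corepressors that hold RBPJ targets off, 11 were tested, 5 rose and 1 fell (median 0.25). CTBP2 (0.79), L3MBTL3 (0.76), TLE1 (0.77) and TLE3 (0.64) were among the rises, and CIR1 fell by 0.49. Genes of both the activating and the repressing complexes of RBPJ therefore rose.

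**Figure D5:**
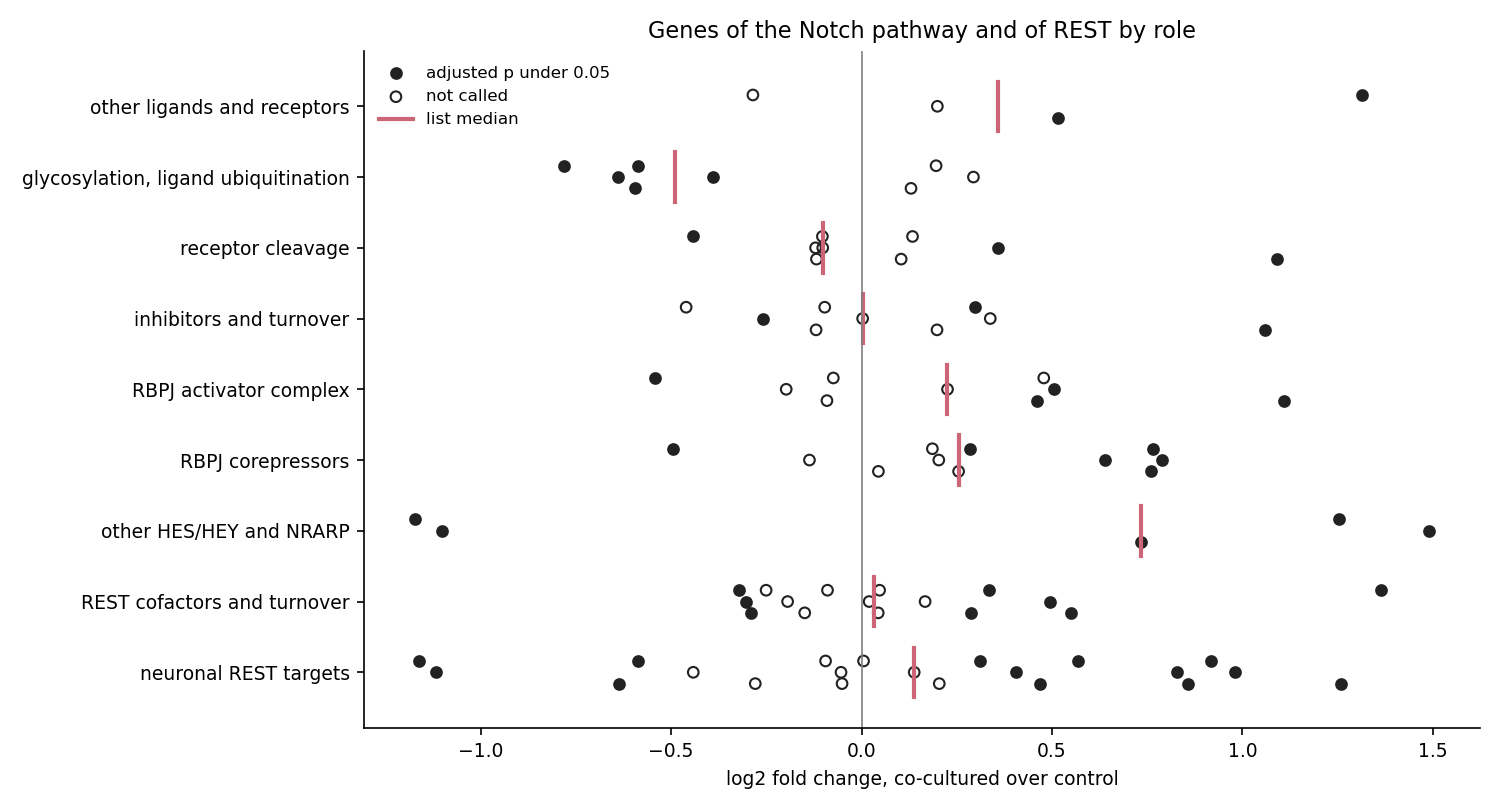
Co-cultured over control cells on the log2 scale (x axis) of the tested genes in 9 lists (rows); filled points have an adjusted p under 0.05, open points do not, and the bar is the list median. The glycosylation and ubiquitination row has its 5 called genes below 0 and a median of -0.49, and the HES, HEY and NRARP row has 3 called genes above 0 and 2 below.

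The other HES and HEY genes and NRARP also went in both directions, and the split did not follow the HES and HEY names. Of 9 genes, 5 were tested and all 5 were called, 3 higher and 2 lower, with a median of 0.73. HEY2, a further HEY repressor, had counts of 62, 67 and 60 in control libraries and 126 and 139 with co-culture (1.25, adjusted p = 0.00159). HES4 had 5, 11 and 15 against 29 and 23 (1.49, adjusted p = 0.0240), and NRARP, a feedback inhibitor of the Notch complex, had 132, 164 and 154 against 265 and 182 (0.73, adjusted p = 0.00724). For all 3 the lower co-cultured library still exceeded the highest control, as it did on the CPM scale in 29.4% of all genes tested. HES6, a relative that counters HES1 and is abundant in neuroendocrine cells, went from 5921, 4669 and 5725 counts to 2381 and 2106 (-1.10, adjusted p = 0.000115). HEYL went from 56, 64 and 77 to 33 and 19 (-1.17, adjusted p = 0.00977). Genes with a match to the RBPJ motif in the printed window were thus found on both sides, HES1, HES4 and HEY2 among the rises and HEYL among the falls. HEY1, which fell, was not searched for the motif. HES5 was listed at 0 counts in every library, and 4 of its 9 protein-coding neighbours within 150 kb were at the floor of 3 counts too, against 21.0% of all protein-coding genes, so whether its 0 measures expression cannot be told from these counts.

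Around REST, 17 genes for cofactors and turnover gave 16 tested, 5 higher and 3 lower, with a median of 0.03. RCOR2, a scaffold of the CoREST complex, had counts of 249, 273 and 335 in control libraries and 803 and 515 with co-culture (1.36, adjusted p = 0.000218). The small phosphatases CTDSP1 (0.50) and CTDSPL (0.55) rose, and the histone-modifying enzymes KDM1A (-0.32) and EHMT1 (-0.29) fell. SRRM4, a neural splicing factor that turns REST into a truncated form, was at 0.04 (adjusted p = 0.736) and was named after its value was seen.

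Neuronal genes known to be silenced by REST moved in both directions. Of 22 genes, 21 were tested, 9 rose and 4 fell, beside 18.4% and 15.0% of all genes tested, with a median of 0.14. VGF (1.26, adjusted p = 0.000460) and SCG2 (0.86, adjusted p = 0.00192), which encode cargo of secretory granules, rose along with the vesicle genes SYT4 (0.83) and SYP (0.57) and the glutamate receptor gene GRIA2 (0.98). VGF had counts of 319, 211 and 239 in control libraries and 600 and 490 with co-culture. The falls, named after their values were seen, were STMN2 (-1.12, adjusted p = 0.0403), STMN3 (-0.64), SCN2A (-0.59) and GRIN1 (-1.16). REST itself was not called, so these values stand beside it as separate measurements.

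Endothelial cells are known to express JAG1, DLL4, HES1 and HEY2, and markers of that cell type were counted in the tumor cell libraries. Of 17 endothelial markers, 9 were tested, 1 rose and 0 fell (median -0.09, with up to 3 falls under other settings), and 6 had at most 3 counts in each library, among them PLVAP with 0 in all. PECAM1 had counts of 14, 10 and 3 in control libraries and 18 and 11 with co-culture, and CDH5 had 11, 8 and 4 against 7 and 11, with overlap in both. ESAM, a junction protein of endothelial cells, rose from 3, 4 and 6 counts to 21 and 14 (2.14, adjusted p = 0.00666). The summed level of the list was 21.5, 14.5 and 9.88 CPM in control and 13.2 and 13.6 CPM with co-culture. The co-cultured libraries thus lay within the range of the controls and above control replicate 3. On the expected strand KDR had 37, 27 and 2 counts in control and 12 and 4 with co-culture. TEK had 31, 24 and 0 against 6 and 3, and FLT1 had 30, 28 and 0 against 1 and 1. These genes raise the sums of control replicates 1 and 2, and a sum without them was not made. The part of reads from endothelial cells in the values of JAG1, DLL4, HES1 and HEY2 was not tested. In bulk RNA, a change in the number of cells of a type and a change in RNA per cell cannot be told apart.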

How the data were processed

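RNA was extracted with Trizol, depleted of rRNA and made into directional libraries, per the labels. The authors deposited counts of reads per gene for each library, without regard to strand and for each strand. The submitters' processing notes name CASAVA 1.8, STAR 2.6.1b, DESeq2 and GRCh38, with no roles. The identifiers were those of GENCODE release 29 (58780 of 64837 entries), and the rest were patch or haplotype entries. The deposited table of the comparison was read for gene symbols only, and its columns of means, fold changes and p-values were not used. Counts of the expected strand (92.3% to 93.1% of stranded counts) were kept. Lines for unmapped and ambiguous reads stayed out of library sizes.

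Genes passing filterByExpr (20360) were TMM-normalized and tested (edgeR's quasi-likelihood F-test, edgeR 4.0.16, R 4.3.3), with Benjamini-Hochberg adjustment over all of them. The biological coefficient of variation was 10.2%. CPM values are TMM-scaled, and a standard error is the log2 fold change over the square root of F. Kilobases are the exonic bases of the gene over all its isoforms. The labels do not say that libraries came from separate cultures, so p-values measure the spread between these samples, which may be technical. Library pairs within groups differed by 4.59 to 18.1 times sampling noise, most in those with control replicate 1, so none was counted as a repeat. An exact permutation test of these group sizes has 0.1 as its smallest p. Wilson 95% intervals cover counting error only. Same-numbered libraries did not deviate together (r = -0.114 and -0.0670). The steps were tested on simulated data. The 10 genes and all lists were chosen with earlier results of these data known. From each list, up to 5 genes with the smallest p among those called were named. Genes given as such in the text were named after their values were seen. The results of some list genes are not reported here. Alternatives were DESeq2 1.42.0, other normalizations and filters, unstranded counts, opposite-strand subtraction, a replicate block and libraries left out. Upstream sequences are from RefSeq (GRCh38.p14); DLL1, DLL3 and HEY1 were not searched. Plots used matplotlib 3.10.9.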

Additional observations from a re-analysis of the deposited data

How the results depend on the processing

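Of 125 values of single genes of the 10 under the alternatives, 108 kept direction and side of the threshold, 12 dropped below it, 4 passed it and 1 reversed. JAG1 and HEY1 were called under all 14 alternatives. DLL3 was at -0.30 for unstranded counts (adjusted p = 0.0559), and without control replicates 1 and 2 DLL3 was at -0.21 (0.0820), NOTCH1 at -0.65 (0.0698), NOTCH2 at 0.53 (6.43e-06) and NOTCH3, reversed, at -0.20 (0.511). NOTCH2 passed the threshold with at least 1 count in any library (0.31, adjusted p = 0.0306) and with subtraction (0.37). The labels give the groups shared numbers only. In the fit with a replicate block JAG2 was at 0.34 (adjusted p = 0.0653), 5 of the 10 genes and 4824 of all genes were called, and the lists gave 1 call for other ligands and receptors, 1 for inhibitors, 4 for REST cofactors and 4 for endothelial markers. Without control replicates 1 and 2 there were 5 calls among inhibitors, 8 among neuroendocrine and 2, both higher, among endothelial markers. Endothelial calls were 2 with DESeq2 (1 lower), 4 with at least 1 count (3 lower), 0 with at least 10 counts in every library and 3 for unstranded counts (2 lower), and 3 of the 4 under the block were lower, against none lower in the reported fit. Upper-quartile normalization gave 3076 higher and 3929 lower genes in place of 3750 and 3059, and 3 higher and 3 lower of the 10. With single libraries left out, 2 (without co-cultured replicate 1) to 7 of the 10 genes were called and 2734 to 9897 of all genes. The log2 fold change then ran from -0.41 to -0.27 for DLL3, 0.29 to 0.39 for JAG2, -1.58 to -1.07 for NOTCH1, 0.22 to 0.40 for NOTCH2 and 0.70 to 1.13 for HES1. List calls ran from 1 to 3 for other ligands and receptors, 2 to 8 for glycosylation and ubiquitination, 1 to 3 for cleavage, 1 to 6 for inhibitors, 2 to 6 for activators, 4 to 8 for corepressors, 3 to 5 for HES, HEY and NRARP, 1 to 11 for REST cofactors, 5 to 17 for REST targets, 2 to 8 for neuroendocrine and 0 to 4 for endothelial markers. Calls over all genes were highest without control replicate 1. The cause of these changes was not tested. NOTCH1, NOTCH3 and REST, with 21 to 158 counts, had the widest intervals of the 9 tested genes.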

Other observations

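Neuroendocrine genes, which Notch activity is known to oppose, were not among the 10 genes described above. The list of 12 genes used for them also holds the tuft-cell marker POU2F3. Of these 12, 11 were tested, 4 rose and 1 fell, beside 18.4% and 15.0% of all genes tested. The median log2 fold change was 0.19 beside -0.03 for all genes. The glycolytic enzyme gene ENO2 rose by 0.66 on the log2 scale (standard error 0.15, edgeR adjusted p = 0.0103), the synaptic vesicle gene SYP by 0.57 and the adhesion gene NCAM1 by 0.37, whereas DDC, an enzyme of amine synthesis, fell by 0.58. INSM1, a neuroendocrine transcription factor, was at -0.04 (adjusted p = 0.824) and was named after its value was seen. CHGA had 0 or 1 counts per library and 1 of its 2 protein-coding neighbours within 150 kb, ITPK1, had 0 in all, so whether this low count measures its expression cannot be told from these counts.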
